A study of Mus musculus with 2 samples.

Results

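The Ccl19 and Gdf10 fibroblasts of the mouse molar were 286 cells of the 17780 cells kept from both libraries. They were chosen by measured values: each had at least 3 UMIs (unique molecular identifiers, counts of single mRNA molecules) over Ccl19 and Gdf10 together, at least 1% of its UMIs from the collagen gene Col1a1, and fewer than 4 UMIs summed over 6 endothelial genes. Kept cells had 200 genes or more, and mitochondrial UMIs made up no more than 20%. The files held 9362 cells and 31053404 UMIs for Lipo-Clo and 9653 cells and 30537834 UMIs for Lipo-PBS, of which 8886 and 8894 cells were kept, with medians of 2672.5 and 2754.5 UMIs. The Lipo-Clo library held 124 of the chosen cells and the Lipo-PBS library held 162. Ccl19 and Gdf10 levels in these cells, and any gene difference between them and other cells, are therefore descriptions and not tests.

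The libraries came from single cells of mandibular first molars with their surrounding tissue, taken from C57BL/6J mice at PN15.5. Lipo-Clo mice had received clodronate liposomes, which kill phagocytic cells, by intraperitoneal injection at 40 μg/g on PN3.5, then on PN6.5 and PN9.5, and last on PN12.5. Lipo-PBS mice had received vehicle liposomes. There was 1 library per condition, both labelled as the same batch, and the number of mice in each is not stated in the sources used here. With 1 library each there is no replicate check and no p-value, and every interval below is a 95% interval that covers counting error only.

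Ccl19 is a chemokine that guides lymphocytes and mature dendritic cells carrying the receptor Ccr7, and it is best known from the fibroblastic reticular cells of lymph nodes. Gdf10, also called BMP3b, is a secreted ligand of the TGF-β superfamily. Adventitial fibroblasts, which surround vessels and lie in loose connective tissue, are known for elastic fibres, decorin and Cd34.

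The start regions of the 2 marker genes are shown because both transcripts were found in the same cells. Each line below is 300 bases of RefSeq sequence on GRCm38.p6, 250 before the annotated start and 50 after it, read 5′ to 3′ on the gene's own strand, with each CG dinucleotide in capitals. The Ccl19 window is chr4:42756316-42756615 (minus strand) and the Gdf10 window is chr14:33923337-33923636 (plus strand).
Ccl19: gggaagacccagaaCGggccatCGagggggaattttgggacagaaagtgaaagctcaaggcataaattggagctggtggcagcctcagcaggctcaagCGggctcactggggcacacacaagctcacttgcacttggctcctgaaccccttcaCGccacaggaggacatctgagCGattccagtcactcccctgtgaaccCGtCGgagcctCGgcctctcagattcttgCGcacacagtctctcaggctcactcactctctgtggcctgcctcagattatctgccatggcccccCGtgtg
Gdf10: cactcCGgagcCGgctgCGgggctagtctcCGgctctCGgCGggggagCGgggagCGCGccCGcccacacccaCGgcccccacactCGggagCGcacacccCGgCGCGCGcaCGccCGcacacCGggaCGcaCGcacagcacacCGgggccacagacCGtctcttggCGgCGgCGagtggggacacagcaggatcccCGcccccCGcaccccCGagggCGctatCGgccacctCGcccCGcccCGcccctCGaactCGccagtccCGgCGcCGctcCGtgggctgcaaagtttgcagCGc
The Gdf10 window held 42 CG dinucleotides, more than 97.0% of 32851 mouse promoter windows of this length, and 77.3% of its bases were G or C. The Ccl19 window held 10 CG dinucleotides against a median of 7 over all windows. The letters GGGNNNNNCC, the core of the NF-κB motif, were found at 1 position in the Ccl19 window, where both strands match, and at none in the Gdf10 window, counting both strands. These letters occur in 50.8% of all windows, so a match is a description only.

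Gdf10 was the more widely detected marker. In Lipo-Clo, 62 of the chosen cells had both transcripts, 47 had Gdf10 alone and 15 had Ccl19 alone. In Lipo-PBS, 76 cells had both, 70 had Gdf10 alone and 16 had Ccl19 alone. Ccl19 gave 285 UMIs in Lipo-Clo, with at most 19 in 1 cell, and 244 UMIs in Lipo-PBS, with at most 11. Gdf10 gave 357 and 457 UMIs, with at most 8 and 9 in 1 cell. A near-identical copy of Ccl19 listed as Ccl19-ps2 gave a further 79 and 90 UMIs. Reads may have been split between the copies, so the Ccl19 counts are uncertain to that extent. Many cells sat at the limit: 44 Lipo-Clo and 77 Lipo-PBS cells had exactly 3 UMIs, while 89 and 147 Col1a1 cells with 2 UMIs fell just outside.

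**Figure D1:**
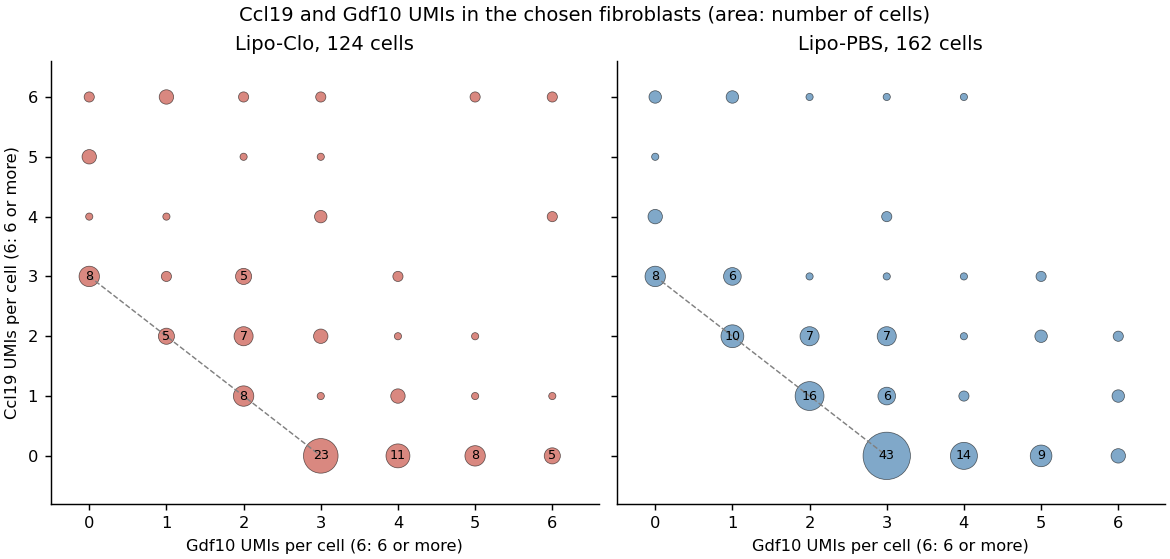
Ccl19 UMIs (vertical axis) against Gdf10 UMIs (horizontal axis) in each chosen cell of Lipo-Clo and Lipo-PBS, with circle area and printed number giving the cells at each pair of counts and the dashed line marking the limit of 3 UMIs. The largest circles are cells with 3 Gdf10 UMIs and no Ccl19, 23 with Lipo-Clo and 43 with Lipo-PBS.

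The chosen cells had a median of 2994 UMIs and 1413 genes in Lipo-Clo and 2981 UMIs and 1488 genes in Lipo-PBS. Mitochondrial transcripts made up 0.211% of their UMIs with Lipo-Clo and 1.48% with Lipo-PBS, and the nuclear RNA Malat1 0.807% and 1.93%. The same gap was seen in the other Col1a1 cells, at 0.340% and 1.70% for mitochondrial transcripts and 1.01% and 1.84% for Malat1. The part of this difference in the comparison of conditions was not tested. Xist, which marks cells of females, gave 59 and 144 UMIs in the chosen cells, and 4 Y-linked genes gave 32 and 26, so cells of both sexes were present in each library. The libraries shared 30 cell barcodes, and 1 chosen cell carried such a barcode. Of the chosen cells, 13 in each library were marked as likely doublets (2 cells read as 1).

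As a check of the label, all kept cells were clustered without Ccl19, Gdf10, Col1a1 and the 6 endothelial genes. Ccl19-ps2 was not among these genes, and any part of it in the clusters was not tested. A single cluster, led by the elastic fibre and matrix genes Eln, Col14a1, Mfap4, Angptl1 and Abi3bp and marked by 14 of the 20 adventitial fibroblast genes, held 98 of the 124 Lipo-Clo cells (79.0%, 70.8 to 85.8) and 130 of the 162 Lipo-PBS cells (80.2%, 73.3 to 86.1). It also carried markers of the lymphoid stroma, marrow stroma and periodontal ligament lists. It is called the main cluster below. Other mesenchymal clusters held 16 chosen cells in each library. Clusters of other lineages held 10 with Lipo-Clo and 16 with Lipo-PBS, of which 6 lay in an unnamed cluster with 72 Lipo-Clo and 733 Lipo-PBS cells that was led by Tagln, Col4a1 and Acta2 and also carried markers of endothelium, macrophages and other cells. Cells with Ccl19 were placed in the main cluster in 87.0% of cases with Lipo-Clo and 85.9% with Lipo-PBS, against 66.0% and 72.9% of cells with Gdf10 alone. A second adventitial cluster, led by Clec3b, Mfap5, Tnxb and Ly6a, held 3 and 4 chosen cells.

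The data thus placed most of these cells in a cluster named for adventitial fibroblast genes. The lymphoid stroma genes were mixed, some well detected and others with few or no UMIs. Of 20 lymphoid stroma genes, 14 had a UMI in each library, and 12 had one in both. Cxcl13, the B cell zone chemokine, Madcam1, Cr2 and Tnfsf13b were at 0 in both, where a count of 0 allows up to 3 UMIs. Ccl21a, the other ligand of Ccr7, had 1 UMI with Lipo-Clo and 0 with Lipo-PBS. In the same libraries Ccl21a reached 14754 and 8542 CPM (UMIs scaled to a sum of 1e+06 over the cells of a set) in lymphatic endothelium. Il7, the lymphocyte survival factor, gave 2 UMIs in each library. Among the 8 with a UMI in enough cells to compare, Il33, an alarmin, was besides Ccl19 the one at least 1.5-fold above the other Col1a1 cells in both libraries, at 79.3 CPM against 13.4 in Lipo-Clo and 137 against 31.5 in Lipo-PBS. Clusterin (Clu) was at least 1.5-fold lower in both, at log2 ratios of -0.95 and -1.64. Podoplanin (Pdpn), a surface protein of reticular fibroblasts, was found in 22.6% and 35.8% of the chosen cells and stood at log2 ratios of 0.56 and 0.94. The adhesion molecule Vcam1 stood at 1.33 and 0.47, and Enpp2 (autotaxin), with 56 and 74 UMIs, at 0.42 and 0.89. Each of these 3 was at least 1.5-fold higher in 1 library only.

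Because the main cluster was formed without the marker genes, it shows how Ccl19 and Gdf10 were spread. Among its 555 Lipo-Clo and 1035 Lipo-PBS cells, 24.3% and 15.7% had a Ccl19 UMI and 41.4% and 38.4% had a Gdf10 UMI. After each cell was thinned to 1000 UMIs, leaving out shallower cells, Ccl19 was found in 16.1% of 498 and 9.72% of 936 cells, and Gdf10 in 24.9% and 24.5%. In erythroid cells, which should lack the gene, the thinned Ccl19 share was 0.461% of 434 cells and 0.300% of 333, and the main cluster lay above that background. As levels, Ccl19 stood at 52.2 CPM with Lipo-Clo and 21.6 CPM with Lipo-PBS in the second adventitial cluster and at 41.5 and 21.2 CPM in mural cells, where Gdf10 stood at 8.29 and 7.28 CPM. In the unnamed cluster led by Tagln, Ccl19 was at 4.32 and 27.8 CPM. For Gdf10 the thinned share in the 31 lymphatic endothelial cells of Lipo-Clo was 9.68% (2.04 to 25.75), an interval that overlaps that of the main cluster (21.2 to 28.9). In the 147 such cells of Lipo-PBS it was 4.08% (1.51 to 8.67), below the main cluster's interval there (21.7 to 27.4). The chosen cells held 48.8% of all Ccl19 UMIs of kept cells with Lipo-Clo and 40.9% with Lipo-PBS, and 40.8% and 34.9% of all Gdf10 UMIs.

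**Figure D2:**
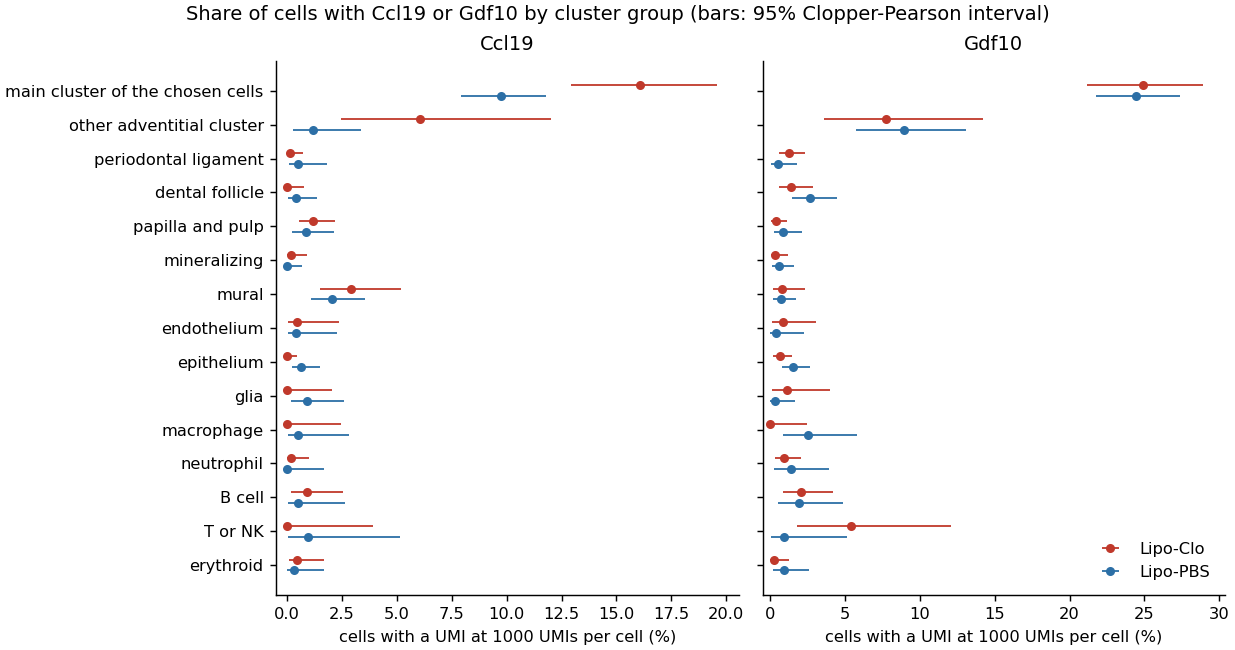
Share of cells with at least 1 UMI of Ccl19 (left) or Gdf10 (right) after thinning every cell to 1000 UMIs, by cluster group and library, with 95% Clopper-Pearson intervals. The main cluster's Gdf10 share was 24.9% with Lipo-Clo and 24.5% with Lipo-PBS, above the intervals of the other groups drawn (lymphatic endothelium, cycling cells and the unnamed clusters are not drawn), and its Ccl19 share was 16.1% and 9.72%.

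Within the main cluster Gdf10 was found more often in cells with Ccl19 than in cells without it. Gdf10 was found in 59.3% of the 135 Ccl19-positive Lipo-Clo cells and 35.7% of the rest, and in 57.7% of the 163 Ccl19-positive Lipo-PBS cells and 34.7% of the rest. At 1000 UMIs per cell the shares were 31.3% (25 of 80 cells) and 23.7% in Lipo-Clo, and 39.6% (36 of 91 cells) and 22.8% in Lipo-PBS. No interval was taken for these shares, and the Lipo-Clo gap is small for so few cells. Deeper cells give more of both transcripts, and Ccl19-positive cells had a median of 2505 UMIs against 2220 in Lipo-Clo and 2463 against 2348 in Lipo-PBS. Across the 52 combinations of cluster and library the levels of the 2 genes followed each other only weakly, with a Spearman coefficient of 0.22. The genes whose levels ranked most like Ccl19 over these 52 points were Enpep, a peptidase of pericytes and other cells (0.73), the transcription factor Foxs1 (0.66) and the eosinophil chemokine Ccl11 (0.64). Those most like Gdf10 were lipoprotein lipase Lpl (0.71), Plac9 (0.71) and the microfibril gene Mfap4 (0.69). These coefficients describe points that share libraries and depth, and only genes reaching 20 CPM in some cluster were ranked.

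The Ccl19 receptor Ccr7 had no UMI in the chosen cells of either library. B cell clusters held 37 Ccr7 UMIs with Lipo-Clo and 27 with Lipo-PBS, and an unnamed cluster led by the antigen presentation gene Cd74 held 46 and 6. The unnamed cluster led by Tagln held 0 and 23. Ackr4, a scavenging receptor that binds Ccl19, was present in the chosen cells at 31.7 CPM with Lipo-Clo and 40.3 CPM with Lipo-PBS, beside 12.3 and 22.5 CPM in the other Col1a1 cells. In the dental follicle cluster Ackr4 reached 41.5 and 85.8 CPM.

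The chosen cells were set beside the 3716 Lipo-Clo and 4209 Lipo-PBS Col1a1 cells that were not chosen. The chosen fibroblasts carried more transcripts of 10 of the 14 adventitial genes compared and of 5 of 13 elastic fibre genes. Of 5078 genes detected in 10% or more of the chosen cells of either library, 411 (8.09%) were at least 1.5-fold higher in both libraries and 119 (2.34%) were at least 1.5-fold lower in both, with median log2 ratios over all genes of -0.01 with Lipo-Clo and 0.05 with Lipo-PBS. Genes were kept by detection in the chosen cells only, so genes scarce in them and higher in the other Col1a1 cells could not be counted. The counts of higher and lower genes are therefore not balanced, here and in the gene groups below. The ratios were taken on CPM plus 1. The 22 leading genes apart from Ccl19, Gdf10 and Ccl19-ps2 are shown in the plot of leading genes.

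Elastic fibre genes were among the leading genes. Mfap4, a microfibril-associated protein, stood at 3035 CPM with Lipo-Clo and 2410 CPM with Lipo-PBS against 264 and 335 CPM in the other Col1a1 cells. Elastin (Eln) stood at 4561 and 4212 CPM against 545 and 664. Of the 13 elastic fibre genes measured, 5 were at least 1.5-fold higher in both libraries (Eln, Mfap4, Mfap5, Loxl1 and Fbn1) and 0 were lower. Their summed level was 11698 and 10541 CPM in the chosen cells and 2732 and 3261 CPM in the others. The cross-linking enzyme Lox stayed under the limit in both libraries, at log2 ratios of 0.36 and 0.46, and the fibrillin Fbn2 passed it only in Lipo-PBS, at 0.39 and 0.73.

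Several leading genes encode secreted proteins. Follistatin (Fst), which binds activins, was at 170 CPM with Lipo-Clo and 285 CPM with Lipo-PBS against 20.7 and 41.8 in the other Col1a1 cells. Ccl11, the chemokine eotaxin, was at 209 and 156 CPM against 9.94 and 22.0. The angiopoietin-like protein Angptl1 was at 2961 and 4152 CPM against 362 and 694, and the IGF-binding protein Igfbp2 at 576 and 703 CPM against 65.5 and 130. Of 11 inhibitors and storage proteins of the TGF-β family, 7 were at least 1.5-fold higher in both libraries, including Ltbp1 (log2 1.08 and 1.26) and Fstl1 (0.98 and 0.85), and 1, the pseudoreceptor Bambi, was lower (-0.99 and -2.05). Of the family's 15 receptors and effectors, 1, the co-receptor Tgfbr3 (2.08 and 1.78), was higher in both, a share near the 8.09% of all genes. Among 9 ligands, Gdf10 and Bmp4 were higher in both, with Bmp4 at 104 and 110 CPM against 33.0 and 44.8, while Tgfb1 and Bmp3 were lower in both. Growth factors for other cells included Igf1, at 1621 CPM with Lipo-Clo and 1692 CPM with Lipo-PBS against 836 and 695.

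Adventitial fibroblast genes were higher as a group. All 20 summed to 9607 CPM with Lipo-Clo and 10510 CPM with Lipo-PBS, against 2531 and 4212 in the other Col1a1 cells. Of these, 14 were detected in 10% or more of the chosen cells of either library, and the rest were too scarce there to be compared. Of the 14, 10 were at least 1.5-fold higher in both libraries and 1, Ly6a, was lower. The median log2 ratio of the 14 was 1.95 with Lipo-Clo and 1.35 with Lipo-PBS. Decorin (Dcn) stood at 2695 and 3248 CPM against 694 and 1192, and the stem and stromal cell antigen Cd34 at 415 and 423 CPM against 57.2 and 119. Pi16, a marker of one adventitial subset, had only 10 and 14 UMIs. Marrow stroma genes were higher for 7 of 13 and lower for 2 (Tmem176a and Tmem176b). Of the higher ones, Lpl was at 417 and 607 CPM against 106 and 178. The adipocyte genes Adipoq and Pparg were at 0 in both libraries. Among transcription factors, 10 of 23 were higher in both and 2, Foxf1 and Foxf2, were lower. The higher ones included Nfib (log2 2.21 and 1.99), Nfia (2.08 and 1.29), Tbx15 (2.93 and 2.26) and Klf4 (1.98 and 1.78).

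Most mineralizing genes and some ligament genes were lower. Of 7 mineralizing genes, 6 were at least 1.5-fold lower in both libraries, and the median log2 ratio was -1.31 and -1.43. Bone sialoprotein (Ibsp) was at 796 and 882 CPM against 3608 and 3615, osteocalcin (Bglap) at 535 and 373 against 1850 and 1422, and the osteoblast regulator Runx2 at 193 and 256 against 597 and 609. A few cells gave most of the Ibsp that remained: 3 cells held 224 of its 351 UMIs in Lipo-Clo and 3 held 268 of 482 in Lipo-PBS. Of 11 periodontal ligament genes, 4 were lower in both (Tnn, Tnmd, Crispld2 and Col12a1), 0 were higher in both and 7 did not pass, among them Htra1 at 0.44 and 0.18. Tenomodulin (Tnmd) was at 136 and 121 CPM against 382 and 307. Odam, Ccn4, Adgrl3, Tmem176a and Gpx3 were also among the 10 lowest genes. Beside the rest of the main cluster alone, Ibsp was not lower, with log2 ratios of 0.88 and 1.90.

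**Figure D3:**
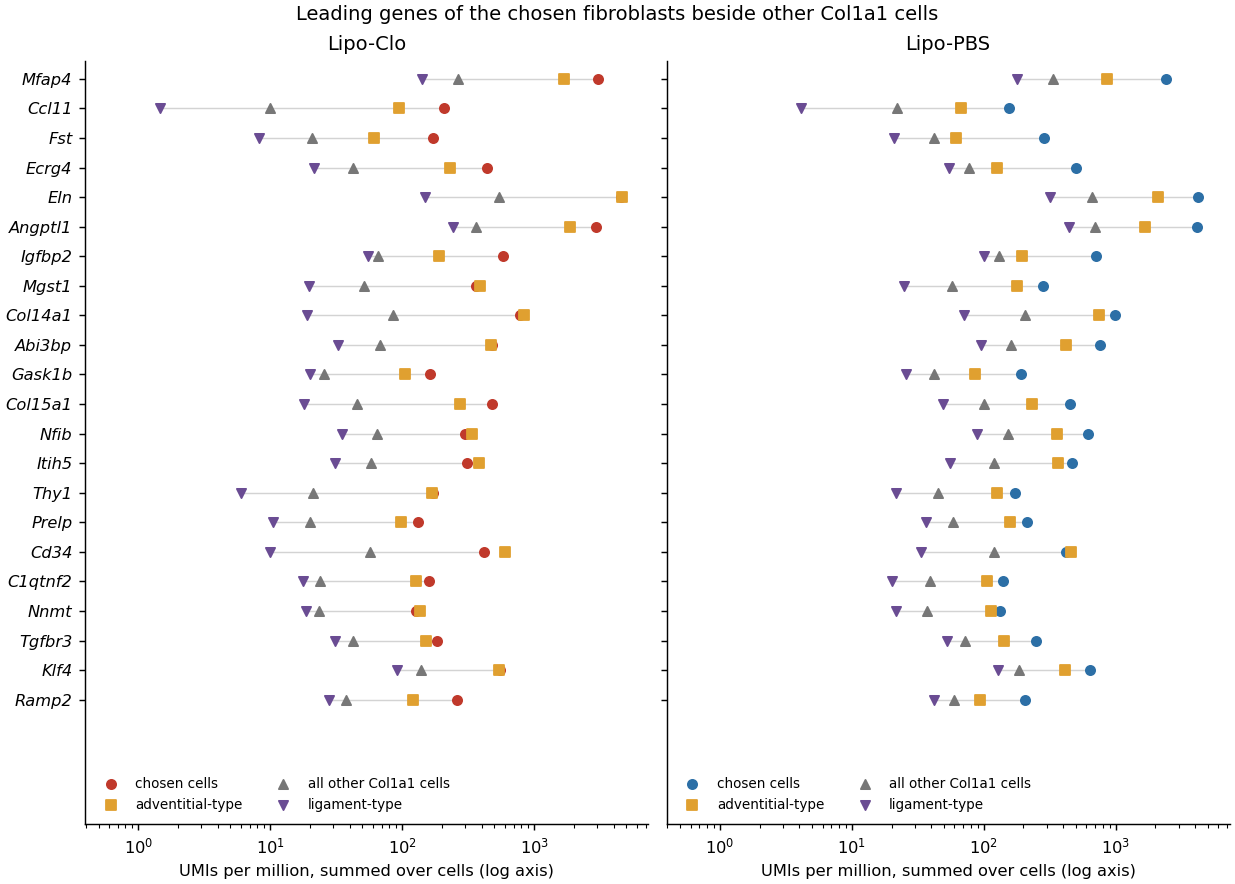
Level of 22 leading genes, in CPM from UMIs summed over the cells of a set (log axis), in the chosen fibroblasts, adventitial-type cells, all other Col1a1 cells and ligament-type cells of each library. The chosen cells lie to the right of the ligament-type cells for every gene, and close to the adventitial-type cells for Nnmt (log2 ratios -0.11 and 0.20).

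To see what set these cells apart from their nearest neighbours, they were placed beside Col1a1 cells that were not chosen and had at least 3 UMIs over Pi16, Clec3b and Mfap5 (323 with Lipo-Clo and 738 with Lipo-PBS, called adventitial-type) or over Tnn, Pappa2 and Tnmd (1536 and 1482, ligament-type). These sets shared 178 cells. All 22 leading genes remained at least 1.5-fold higher than in ligament-type cells in both libraries, while 9 remained so beside adventitial-type cells. The 9 were Mfap4, Ccl11, Fst, Ecrg4, Angptl1, Igfbp2, Gask1b, Col15a1 and Ramp2, a subunit of the adrenomedullin receptor. Fst was 1.46 and 2.20 log2 units above adventitial-type cells, Igfbp2 1.58 and 1.84, Ccl11 1.13 and 1.19, and Ramp2 1.10 and 1.13. Eln differed between the libraries, with a log2 ratio of -0.03 with Lipo-Clo and 1.01 with Lipo-PBS, and Cd34 was below the adventitial-type level at -0.54 and -0.11. Beside the rest of the main cluster, only Igfbp2 (0.91 and 1.08) and Ccl11 (0.61 and 0.72) of these 9 were at least 1.5-fold higher in both libraries. Fst (0.07 and 0.81), Ecrg4 (0.01 and 0.79), Ramp2 (0.57 and 0.71) and Mfap4 (0.41 and 0.60) passed that limit in Lipo-PBS only, and Angptl1 (0.23 and 0.50), Gask1b (0.24 and 0.45) and Col15a1 (0.38 and 0.19) in neither.

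The chosen cells were not uniform. Those with Ccl19 (77 with Lipo-Clo and 92 with Lipo-PBS) were set beside those with Gdf10 alone (47 and 70). Follistatin went with Ccl19: Fst had 68 UMIs in the Ccl19 cells and 7 in the Gdf10-only cells of Lipo-Clo, and 135 and 21 in Lipo-PBS, log2 ratios of 2.64 (1.52 to 4.01) and 2.40 (1.73 to 3.14). Itih5, a hyaluronan-associated protein, was higher by 1.81 (1.13 to 2.56) and 1.17 (0.76 to 1.59), Ramp2 by 1.36 (0.69 to 2.09) and 1.61 (0.94 to 2.32), and the basement membrane collagen Col15a1 by 1.17 (0.69 to 1.67) and 1.01 (0.60 to 1.43). Igfbp2, Ecrg4, Mfap4, Ccl11, Col14a1, Cd34 and Angptl1 were also higher in the Ccl19 cells, each with an interval above 0 in both libraries. The ligament gene Tnmd went the other way, at -1.64 (-2.49 to -0.83) and -1.48 (-2.32 to -0.70). Eln had opposite signs, 0.28 (0.14 to 0.41) in Lipo-Clo and -0.29 (-0.41 to -0.17) in Lipo-PBS.

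The same split was made over all cells of the main cluster, whether chosen or not. Fst was at 335 CPM in the 135 Lipo-Clo cells with Ccl19, 43.2 CPM in the 150 with Gdf10 alone and 152 CPM in the 270 with neither. In Lipo-PBS it was at 498, 142 and 114 CPM in 163, 303 and 569 cells. Fst was thus highest in cells with Ccl19 in both libraries, and its order in the remaining 2 groups differed between libraries. Ramp2 (log2 1.26 and 1.09), Col15a1 (1.08 and 0.87), Ccl11 (0.94 and 1.01) and Itih5 (0.48 and 0.99) were also higher in Ccl19 cells than in Gdf10-only cells, and each interval lay above 0. The same held for Igfbp2 (1.34 and 0.42), Ecrg4 (0.69 and 0.73), Gask1b (0.71 and 0.51), Mfap4 (0.38 and 0.60) and Angptl1 (0.34 and 0.37). Eln was higher in the Gdf10-only cells, at 10419 CPM against 5327 in Lipo-Clo and 4721 against 4017 in Lipo-PBS. In Lipo-Clo this order was opposite to that within the chosen cells. Abi3bp, an extracellular matrix protein, was also higher in the Gdf10-only cells, with log2 ratios of -0.68 and -0.57. Tnmd showed no such split in the main cluster, at 0.14 (-0.73 to 1.01) and -0.53 (-1.14 to 0.04), and was at 361 and 331 CPM in the cells with neither transcript.

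**Figure D4:**
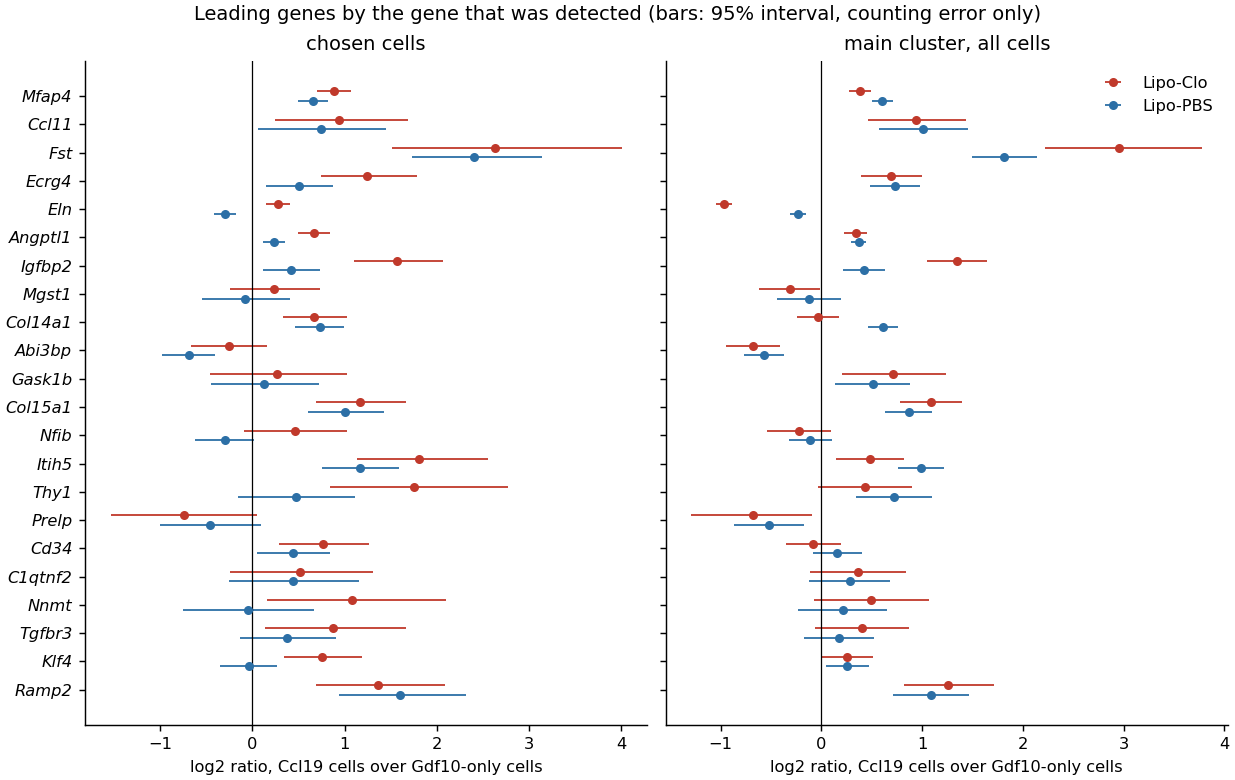
Log2 ratio of each leading gene between cells with Ccl19 and cells with Gdf10 alone, within the chosen fibroblasts (left) and within all cells of the main cluster (right), for each library, with 95% intervals for counting error. Fst, Ramp2, Col15a1, Ccl11, Itih5, Igfbp2, Ecrg4, Mfap4 and Angptl1 have intervals above 0 in both panels and both libraries. Gask1b, Thy1, C1qtnf2 and Tgfbr3 also lie above 0 throughout, with some intervals that span 0. Fst is the furthest, at 2.64 and 2.40 in the chosen cells.

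Lipo-Clo was then compared with Lipo-PBS. The chosen cells made up 1.40% (1.16 to 1.66) of kept cells in Lipo-Clo and 1.82% (1.55 to 2.12) in Lipo-PBS, or a log2 ratio of -0.38 (-0.73 to -0.04). Of all Col1a1 cells they made up 3.23% (2.69 to 3.84) and 3.71% (3.17 to 4.31), or a log2 ratio of -0.20 (-0.55 to 0.15). Within the main cluster the order was the opposite: the chosen cells made up 17.7% (14.6 to 21.1) of its 555 Lipo-Clo cells and 12.6% (10.6 to 14.7) of its 1035 Lipo-PBS cells. Cells with at least 3 UMIs of Gdf10 numbered 74 with Lipo-Clo and 102 with Lipo-PBS, or a log2 ratio of their shares of -0.46 (-0.91 to -0.02). Cells with at least 3 UMIs of Ccl19 numbered 44 and 35, or 0.33 (-0.34 to 1.01), an interval that spans 0. At 5 UMIs over both genes there were 58 and 48 cells, and the log2 ratio was 0.27 (-0.30 to 0.86), which also spans 0.

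Over all kept cells Ccl19 gave 584 UMIs with Lipo-Clo and 597 with Lipo-PBS, and Gdf10 gave 874 and 1309. In the main cluster the levels of both genes were higher in Lipo-Clo. In the main cluster Ccl19 stood at 255 CPM with Lipo-Clo and 122 CPM with Lipo-PBS, or a log2 ratio of 1.07 (0.85 to 1.29), and Gdf10 at 366 and 284 CPM, or a log2 ratio of 0.36 (0.20 to 0.53). The log2 ratio of the share of main-cluster cells with a UMI was 0.63 (0.29 to 0.97) for Ccl19 and 0.11 (-0.13 to 0.35) for Gdf10, and after thinning 0.72 (0.27 to 1.17) and 0.03 (-0.30 to 0.35). In the chosen cells, whose levels the rule sets, Ccl19 was at 646 and 446 CPM and Gdf10 at 809 and 836 CPM. Ccl19 was also at the higher level in Lipo-Clo in mural cells, in the second adventitial cluster, in an unnamed cluster led by Mmp13, Sfrp2 and Ogn (19.1 CPM, 13.7 to 25.97, against 8.43, 5.22 to 12.9) and in papilla and pulp (12.6 CPM, 8.69 to 17.7, against 6.44, 3.21 to 11.5). Ccl19 was at the lower level in Lipo-Clo in the other Col1a1 cells, which hold at most 2 UMIs of the markers (8.30 and 10.3 CPM). It was also lower in the dental follicle cluster (2.05 CPM, 0.56 to 5.25, against 7.06, 3.76 to 12.1). In the unnamed cluster led by Tagln it was at 4.32 CPM (0.11 to 24.1), from 1 UMI in 72 cells, against 27.8 (22.0 to 34.8). The intervals overlap in both of these clusters. The leading genes of the main cluster differed in level between libraries, so its size was not compared. Its makeup may differ as well, and the part of this in the levels and shares within it was not tested. Fewer cells of a type and less RNA per cell cannot be told apart in the sums.

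Across the transcriptome of the chosen cells, 3101 genes were detected in 10% or more of the cells of either library and had at least 50 UMIs in all. Of these, 228 (7.35%) were at least 1.5-fold higher in Lipo-Clo and 512 (16.5%) at least 1.5-fold lower, with a median log2 ratio of -0.01. The 95% interval lay clear of 0 for 174 of the higher and 382 of the lower genes. With TMM scaling the split was 329 higher and 410 lower. Lower genes were not in excess with thinning to 1000 UMIs (81 higher and 71 lower) or in cells with 5 or more UMIs (115 and 107). The same held in cells with 3 or more UMIs of Ccl19 (98 and 55), and fewer genes were in use in each of these settings. Of the 3101 genes, 20 were higher and 231 lower in the other Col1a1 cells. The summed counts there were far deeper (14585895 and 15303731 UMIs against 441117 and 546545). Of the 228 higher genes 216 had the same sign there, and of the 512 lower genes 477 did.

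Among genes with 100 UMIs or more, Card19 had the highest ratio of Lipo-Clo over Lipo-PBS, with 86 and 46 UMIs and a log2 ratio of 1.21 (0.68 to 1.76). Fkbp11, a chaperone of the endoplasmic reticulum, had 143 UMIs with Lipo-Clo and 80 with Lipo-PBS, or a log2 ratio of 1.15 (0.74 to 1.56) beside 0.45 in the other Col1a1 cells. Cope, a subunit of the COPI vesicle coat, was higher by 0.95 (0.58 to 1.33), the mitochondrial import receptor Tomm22 by 1.16 (0.58 to 1.75) and the copper chaperone Cox17 by 1.03 (0.47 to 1.59). Tagln2, an actin-binding protein, was higher by 1.01 (0.57 to 1.45) beside 0.01 in the other Col1a1 cells, Blvrb by 0.97 and Mrpl42 by 0.97. The mineralization enzyme Alpl was higher by 0.98 (0.45 to 1.53) and the microtubule regulator Stmn1 by 1.11 (0.55 to 1.69). Odam, a gene of enamel epithelium, and clusterin (Clu) were also among the 12, at 1.16 and 1.18, but 68 of the 123 Odam UMIs and 23 of the 66 Clu UMIs of Lipo-Clo lay in 1 cell each. In cells with 3 or more UMIs of Gdf10, Clu stood at -0.17 (-1.22 to 0.84) and Odam at -0.24 (-1.01 to 0.51). In cells with 5 or more UMIs of the markers they stood at 2.82 (1.48 to 4.52) and 2.83 (1.96 to 3.83). In cells with 3 or more UMIs of Ccl19 they stood at 4.04 (2.09 to 7.13) and 4.18 (2.78 to 6.09). Without the cells marked as doublets, Alpl stood at 0.39 (-0.27 to 1.05), Stmn1 at 0.06 (-0.83 to 0.94) and Odam at 0.19 (-0.43 to 0.79), all under the limit, while the other 9 of the 12 stayed past it. In cells with 5 or more UMIs of the markers, Tagln2 stood at 0.43 (-0.34 to 1.21).

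The lowest ratio was that of Edil3, an integrin-binding matrix protein, which had 19 UMIs with Lipo-Clo and 93 with Lipo-PBS, or a log2 ratio of -1.98 (-2.78 to -1.26) beside -0.94 in the other Col1a1 cells. Ccn2 (CTGF), a matricellular protein, had 70 and 254 UMIs, -1.55 (-1.95 to -1.16) beside -1.08. Hemicentin (Hmcn1) had 57 and 190 UMIs, -1.43 (-1.88 to -0.99). The kinase gene Prkg1 stood at -1.49 (-1.96 to -1.04), the DNA-binding protein gene Hivep2 stood at -1.62 (-2.24 to -1.04), the histone demethylase-like gene Jmjd1c at -1.39 and the DNA polymerase gene Rev3l at -1.33. In cells with 3 or more UMIs of Ccl19, Hivep2 stood at -0.72 (-1.84 to 0.37), an interval that spans 0. Slc5a3, an inositol transporter, stood at -1.53, Slc25a21 at -1.44, Atrnl1 at -1.34 and Erdr1y at -1.59. Slc25a21 was under the limit in cells with 3 or more UMIs of Ccl19, at -0.45 (-1.57 to 0.66). Atrnl1 was under it with thinning, at -0.35 (-1.37 to 0.63). The neutrophil granule gene Ngp was listed among the lowest at -1.36, yet 116 of its 130 Lipo-PBS UMIs were in 1 cell. Without the highest cell of each library Ngp stood at 1.20, and in the other Col1a1 cells at 1.55. Ccn2 stood at -0.30 (-0.87 to 0.27) in cells with 5 or more UMIs of the markers and at 0.91 (-0.21 to 2.14) in cells with 3 or more UMIs of Ccl19.

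**Figure D5:**
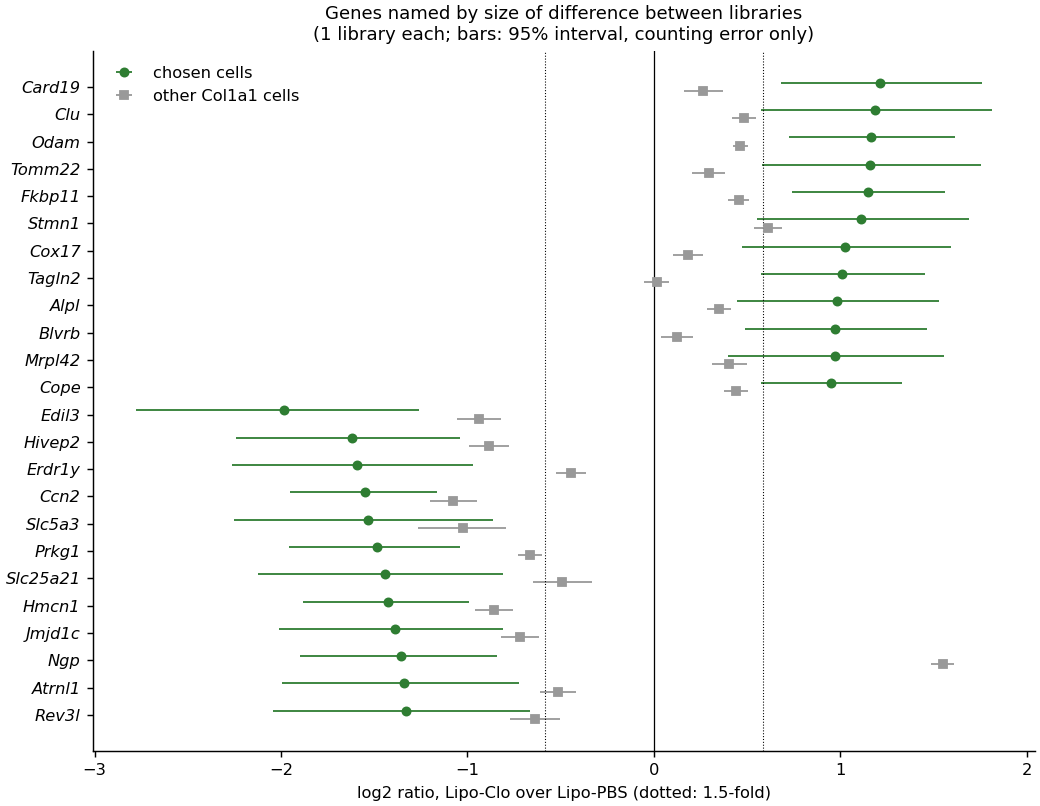
Log2 ratio of Lipo-Clo over Lipo-PBS for the 12 highest and 12 lowest genes of the chosen fibroblasts (circles) and the same genes in the other Col1a1 cells (squares), with 95% intervals for counting error and dotted lines at 1.5-fold. Every gene except Ngp has the same sign in both sets, and the lowest is Edil3 at -1.98 in the chosen cells.

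By group, the adventitial fibroblast genes moved little between libraries in the chosen cells. Of 14 in use, 0 were at least 1.5-fold higher and 1 (Sema3c) was lower, with a median log2 ratio of -0.08 (all genes -0.01), beside a median of -0.82 for the same genes in the other Col1a1 cells. Clec3b stood at 0.40 (0.09 to 0.70) in the chosen cells and -0.87 in the others, and Cd34 at -0.03 (-0.32 to 0.26) and -1.05. The other Col1a1 cells held fewer adventitial-type cells in Lipo-Clo, 323 against 738, and the part of this in the difference between sets was not tested. Elastic fibre genes were alike in this respect: of 11 in use, 0 were past the limit either way, with a median of -0.01. Eln stood at 0.12 (0.03 to 0.20) and Mfap4 at 0.33 (0.22 to 0.44).

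Some other groups held a larger share of lower genes than the whole table, where 16.5% were lower, and some did not. Of 11 periodontal ligament genes 6 were at least 1.5-fold lower and 1 (Crispld2) was higher, and 4 of the 11 lay above 0. Periostin (Postn), the most abundant of them by UMIs, stood at 0.43 (0.29 to 0.57) in the chosen cells and -0.43 in the other Col1a1 cells. The lower genes included fibromodulin (Fmod) at 13 and 77 UMIs, -2.26 (-3.23 to -1.40), Itgbl1 at -0.99 (-1.40 to -0.59) and asporin (Aspn) at -0.97 (-1.20 to -0.74). In the other Col1a1 cells Fmod stood at -1.11, Itgbl1 at -0.36 and Aspn at -0.82. Of 8 growth factors for other cells 4 were lower and 0 higher, among them Il33 at -0.79 (-1.41 to -0.19), Angpt1 at -0.90 (-1.64 to -0.21) and Gas6 at -0.65 (-1.29 to -0.03), while Igf1 stood at -0.06 (-0.21 to 0.08). Il33, Angpt1 and Gas6 stood at -1.23, -1.07 and -0.50 in the other Col1a1 cells. Of 10 TGF-β receptors and effectors 3 were lower (Bmpr2, Tgfbr1 and Smad4) and 1, the BMP target Id1, was higher. Of 7 TGF-β family ligands 2 were higher and 0 lower. The higher ligands were Tgfb1 at 0.93 (0.18 to 1.70) and Bmp3 at 0.74 (0.18 to 1.30). Fst stood at -0.75 (-1.16 to -0.34), and Bambi at 1.80 (1.08 to 2.58), although 30 of the 62 Bambi UMIs of Lipo-Clo were in 1 cell. Of 29 proteoglycan and glycoprotein genes 7 were lower and 0 higher. Collagens, with 3 of 20 lower (Col4a1, Col4a2 and Col8a1) and 1 higher (Col6a6), and transcription factors, with 3 of 18 lower and 0 higher, were near the 16.5% of all genes. The lowest transcription factor was Bnc2 at -1.88 (-2.76 to -1.09), followed by Nfib at -1.03 (-1.33 to -0.74) and Prrx1 at -0.81 (-1.15 to -0.48).

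Among chemokines other than Ccl19, Ccl11 was found in 31.5% of the chosen Lipo-Clo cells and 30.2% of the Lipo-PBS cells, with a log2 ratio between libraries of 0.42 (-0.02 to 0.87). Cxcl12 was found in 28.2% and 28.4%, with a ratio of -0.15 (-0.65 to 0.34). Some others lay in few cells. Ccl2 had 13 UMIs in 7 Lipo-Clo cells and 128 in 13 Lipo-PBS cells, but 99 of the 128 were in 1 cell, and 81 of the 98 Cxcl2 UMIs of Lipo-PBS were likewise in 1 cell. Cxcl14 was spread more widely, with 6 UMIs in 6 Lipo-Clo cells and 41 in 24 Lipo-PBS cells, and Cxcl10 had 3 UMIs in 3 cells and 36 in 18 cells. Ccl2, Cxcl2, Cxcl10 and Cxcl14 were singled out after their values were seen.

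Transcripts of other cell types moved with the comparison to different degrees. Erythroid genes summed to 27238 CPM in the chosen cells of Lipo-Clo and 37788 CPM in Lipo-PBS, with Hbb-bs the most abundant, beside 23484 and 49637 CPM in the other Col1a1 cells. All 8 neutrophil genes had a UMI in each library and, led by S100a9, summed to 3593 and 2820 CPM beside 7556 and 2204 CPM. They were found in more of the chosen cells with Lipo-Clo than with Lipo-PBS for S100a9 (49.2% and 16.05%), Camp (33.1% and 8.02%) and S100a8 (21.8% and 3.70%). Of 10 macrophage genes, 5 had a UMI with Lipo-Clo and 9 with Lipo-PBS. They were led by Fcer1g and summed to 116 and 370 CPM, beside 485 and 358 CPM in the other Col1a1 cells, where the order of the libraries was the opposite. Adgre1 was at 0 in both, and C1qa and C1qb were at 0 in Lipo-Clo and at 17 and 16 UMIs in Lipo-PBS, where they lay in 2.47% and 3.70% of the chosen cells. Of 10 endothelial genes, 6 of which the rule limits, 6 had a UMI with Lipo-Clo and 10 with Lipo-PBS, and they summed to 40.8 and 76.8 CPM beside 33.4 and 109 CPM. Epithelial genes, led by Odam, summed to 503 and 415 CPM beside 1182 and 1026 CPM, with Epcam at 0 in both. Of 12 mural genes 11 had a UMI in each library, and led by Tagln they summed to 462 and 829 CPM beside 814 and 1100 CPM, with Cnn1 at 0 in both, and 2 of the 3 in use were lower in Lipo-Clo. The part of these transcripts in the results was not tested. Immediate early genes, which respond to tissue dissociation, were at least 1.5-fold higher than in the other Col1a1 cells in both libraries for 13 of 19, with Atf3 at 401 and 364 CPM against 97.8 and 185, but between libraries their median log2 ratio was 0.14 with 1 higher and 1 lower.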

How the data were processed

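The authors prepared 10x Genomics single-cell libraries and deposited raw UMI counts per gene and cell, 1 matrix per library. The file headers name Cell Ranger 8.0.0, while the submitters' processing notes name Cell Ranger 3.1.0, Seurat 3.1.1 and GRCm39, with no role given. Counts were used as deposited. Cells were clustered in scanpy 1.11.5 with leidenalg 0.10.2 on 2000 variable genes, 30 components and 20 neighbours at resolution 1, leaving out the genes that chose the cells. A cluster was named from its marker genes unless its 5 leading genes held more markers of another list. Scrublet's own limit marked 0% and 0.011% of cells and so did not work. The highest scores, 0.8% per 1000 cells, were marked in its place (632 and 633 cells), and marked cells were kept here.

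UMIs were summed over the chosen cells of a library and scaled to CPM, and ratios have exact Poisson intervals from scipy 1.17.1. Ratios against other cells add 1 CPM, and ratios between conditions add nothing. Named genes were the 25 leading and 10 lowest genes with a UMI in 25% of cells, the 12 highest and 12 lowest condition ratios among genes with 100 UMIs or more, and the most abundant genes of 36 lists. Other list genes were named after their values were seen, and 1 of the 10 lowest genes is not reported here. The chosen cells and the lists were set with earlier results of these data known. The ratio calculation was tested on simulated data. Alternatives used edgeR 4.0.16 and DESeq2 1.42.0 scaling factors, thinning to 1000 UMIs and other rules for choosing cells.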

Additional observations from a re-analysis of the deposited data

How the results depend on the processing

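No paired analysis was possible because there was 1 library per condition, and for the same reason no replicate could be left out. The log2 ratio of the share of chosen cells lay below 0 under 13 of 16 alternatives, 7 of them with an interval below 0. It was 0.27 with 5 or more UMIs, 0.33 with 3 or more UMIs of Ccl19 and 0.0013 with Col1a1 at 2% or more, each with an interval that spans 0, and the cause was not tested. Genes at least 1.5-fold higher and lower in Lipo-Clo numbered 81 and 71 with cells thinned to 1000 UMIs (847 genes in use), 616 and 1428 over all 6353 genes with 20 UMIs or more, 17 and 164 at a limit of 2-fold, 115 and 107 in cells with 5 or more UMIs (1057 genes), and 98 and 55 in cells with 3 or more UMIs of Ccl19 (769 genes). The lower genes numbered 314 in cells with 3 or more UMIs of Gdf10 (1938 genes) and 298 in the chosen cells of the main cluster (2218 genes). Fewer genes were in use in each smaller set of cells. Of the genes past the limit 30.8% were higher in Lipo-Clo in the values reported and 44.5% with TMM factors. That share was 53.3% with thinning, 51.8% with 5 or more UMIs and 64.1% with 3 or more UMIs of Ccl19, so lower genes were not in excess in these 3 settings. Beside adventitial-type cells 124 genes were higher and 76 lower in the chosen cells, and with 5 or more UMIs 180 were lower.

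Clu stood at -0.17 and Odam at -0.24 in cells with 3 or more UMIs of Gdf10. In cells with 3 or more UMIs of Ccl19 they stood at 4.04 and 4.18, and Ccn2 stood at 0.91 (-0.21 to 2.14). Ngp stood at 4.95 with 5 or more UMIs, 5.20 in the main cluster and 1.20 without its highest cell. Of 283 values of single genes under alternatives, 250 stayed within the reported value's interval for counting error, 27 moved beyond it and 6 changed a sign whose interval lay clear of 0. The 250 include Gdf10, whose interval spans 0: its ratio of -0.05 was 0.03 with TMM factors and with the mean over scaled cells, and 0.004 in cells with 3 or more UMIs of Gdf10. Without the highest cell of each gene, 197 of the 228 higher and 504 of the 512 lower genes stayed past the limit. The alternatives by main cluster, by leaving out clusters of other lineages, by highest cell and with Ccl19-ps2 were chosen after seeing the data. Slc25a21 stood at -0.45 in cells with 3 or more UMIs of Ccl19 and Atrnl1 at -0.35 with thinning. Depth limits the number of cells: thinning left 28 in Lipo-Clo and 35 in Lipo-PBS.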

Other observations

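Smaller gene groups of the chosen fibroblasts are given here as values only. Over all 5078 genes, which were kept by detection in the chosen cells, 8.09% were higher and 2.34% lower than in the other Col1a1 cells in both libraries. Of 14 lipid and retinoid genes compared with the other Col1a1 cells, 7 were at least 1.5-fold higher in both libraries and 0 lower. They included apolipoprotein E (Apoe, log2 ratios 1.52 and 1.00) and the retinaldehyde dehydrogenase Aldh1a1 (2.76 and 1.88), which had 21 and 22 UMIs. Rbp4, a retinol carrier, had 51 UMIs with Lipo-Clo and 26 with Lipo-PBS, or a log2 ratio of 1.28 (0.57 to 2.02) beside -0.19 in the other Col1a1 cells. Among 7 complement genes, 3 were higher in both libraries and 1, clusterin (Clu, -0.95 and -1.64), was lower, with the lectin pathway protease Masp1 at 2.84 and 2.09 and the C1 inhibitor Serping1 at 0.98 and 1.00. Among 11 Wnt modulators, Dkk2 (1.43 and 1.60) and Rspo1 (0.96 and 1.00) were higher in both and Wif1 (-1.48 and -1.13) was lower. Of 5 NF-κB pathway genes and 3 antigen presentation genes, 0 were past the limit in both libraries. Of 7 interferon response genes 1, Ifi27, was higher and 2 were lower, beside 8.09% and 2.34% of all genes. Of 15 matrix proteases and inhibitors 1, Mmp2, was higher, a share near the 8.09% of all genes, and 2, Timp1 and Mmp14, were lower.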
